A study of Mus musculus with 115 samples.

Results

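Testosterone and estradiol were compared directly in inguinal fat, the subcutaneous fat depot of the groin, over the 19 arrays of testosterone-treated mice and the 19 arrays of estradiol-treated mice. These 38 arrays were chosen by their labels, with no measured value, out of 115 arrays of liver and fat in the series. The mice belong to a model on a C57BL/6J background in which the Y chromosome (Y-) has lost the testis-determining gene Sry and an autosomal Sry transgene may be present, so that ovaries or testes form independently of the sex chromosomes. The 4 genotypes were XX and XY-, which form ovaries, and XXSry and XY-Sry, which form testes. All mice had their gonads removed at 75 days of age and at once received a Silastic capsule with testosterone (5 mM) or estradiol (50 µg in sesame oil), or a blank capsule, and tissue was taken 3 weeks later. The testosterone arm held 4 XX, 5 XY-, 5 XXSry and 5 XY-Sry arrays, and the estradiol arm 5 XX, 5 XY-, 4 XXSry and 5 XY-Sry arrays. The 17 blank arrays of the same depot did not enter this comparison. They were normalised with the 38 arrays and compared with each hormone in a separate fit. Because every mouse kept its gonads until adulthood, genotypes with and without Sry also differ in the hormones they had been exposed to before surgery. No label says that arrays of a group came from separate animals, and the p-values measure the spread between these arrays.

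As background, testosterone and estradiol act through nuclear receptors, which are hormone-activated transcription factors that bind DNA as dimers. Testosterone can also be turned into estradiol by aromatase, so a testosterone capsule is not a treatment free of oestrogen. Receptors for both hormones are found in adipocytes and in the progenitor and stromal cells of fat, and the inguinal depot also holds a lymph node and, in mice that formed ovaries, mammary ducts.

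Levels are given as log2 of background-corrected and quantile-normalised intensity with 16 added, on which probes without signal read about 4.5. A difference is testosterone minus estradiol on this scale, with the 4 genotypes weighted equally and the standard error (SE) of the limma fit. A positive difference therefore means a higher level with testosterone. A probe is called when its limma p-value, adjusted by Benjamini-Hochberg over all 13961 tested probes, is under 0.05.

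The arrays matched their labelled tissue, with Adipoq, the adipocyte hormone adiponectin, between 13.42 and 14.32 in all 38 arrays. From 40.3% to 46.7% of the probes were detected in testosterone arrays and from 42.8% to 49.0% in estradiol arrays. RNA of neighbouring tissue varied widely between arrays of each hormone. The mean level of 12 skeletal muscle markers ran from 7.56 to 13.55 with testosterone and from 5.99 to 13.46 with estradiol, and that of 13 lymph node markers from 5.31 to 10.67 and from 5.30 to 10.74. The mean level of 10 liver markers reached 14.14 in XY-Sry T replicate 1 and lay between 6.55 and 12.08 in the other testosterone arrays. Replicate and slide numbers were assigned here and are not in the labels. When XY-Sry T replicate 1 was left out, the number of called members changed by at most 2 in each gene or marker list, and the calls of Agt and Insig1 were lost. The label fields of XX E replicate 1 disagree on its hormone. It was kept as estradiol by its title. Of the 7 slides that held these arrays 3 carried both hormones, with 11 arrays of each, so hormone and slide are partly confounded. Slide as a fixed block ended 24 of the calls of named genes.

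In the comparison of the hormones, 2520 of 13961 probes were called, which is 18.1%. Of these, 1086 (7.78%) were higher with testosterone and 1434 (10.3%) were higher with estradiol. Under median centring in place of quantile normalisation, 480 were higher with testosterone and 1115 with estradiol, so the balance between the directions depends on the scaling. The difference was 2-fold or more for 100 probes higher with testosterone (0.716%) and for 237 higher with estradiol (1.70%). Of the 2520 probes, 2323 (92.2%) differed in the same direction in all 4 genotypes. Without XY-Sry T replicate 1 the count was 2672, and 2390 of the 2520 probes (94.8%) were called again in the same direction. With slide as a fixed block 1289 probes were called, among them 1145 of the 2520 (45.4%), and all 2520 kept their direction. Counts of list members called with slide as a fixed block stand beside these 1289 of 13961 probes, not beside the 18.1%.

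**Figure D1:**
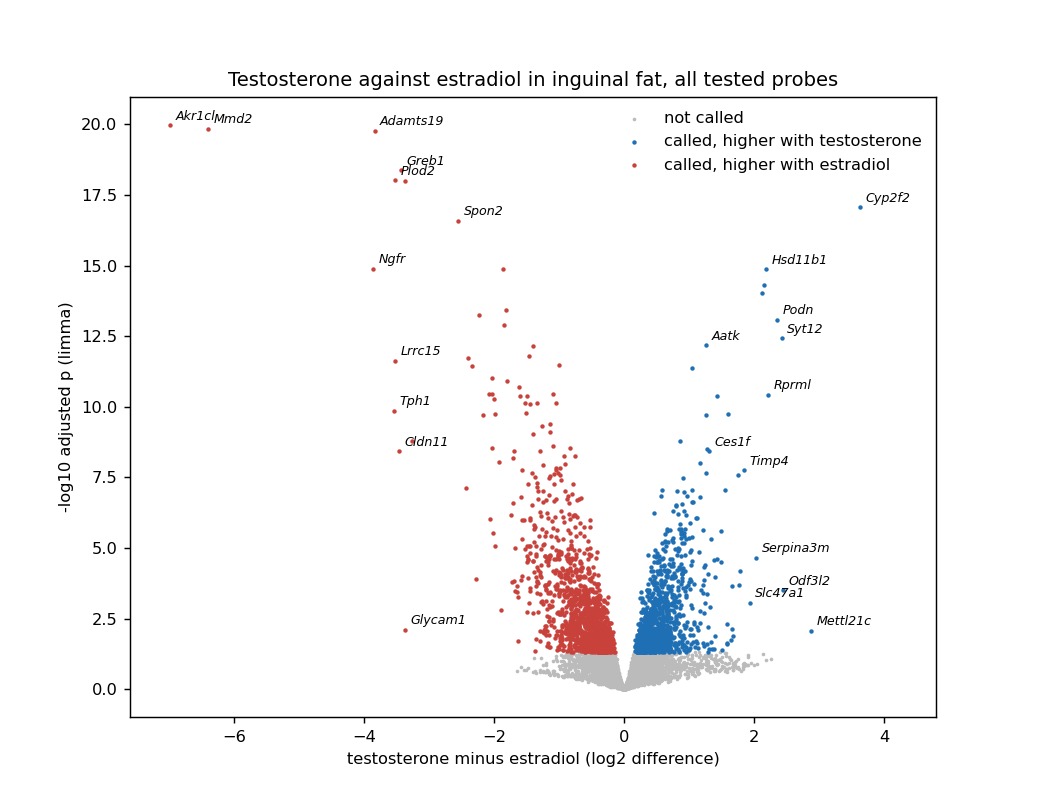
Testosterone minus estradiol (log2 difference, horizontal) against -log10 of the limma adjusted p (vertical) for all 13961 tested probes, with called probes in blue where higher with testosterone and in red where higher with estradiol. The points farthest out are Akr1cl at -6.98 and Mmd2 at -6.40 on the estradiol side and Cyp2f2 at 3.63 on the testosterone side.

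For 26 probes (0.186%) the 19 arrays of one hormone all lay above the 19 arrays of the other. Of these, 17 probes (0.122%) were higher with estradiol and 9 (0.0645%) were higher with testosterone, and together they stand for 23 genes. The count was 26 without XY-Sry T replicate 1 and 12 under median centring. It was 27 without XX E replicate 1 and 1 when that array was counted as testosterone. The genes with the widest gaps were Akr1cl, Mmd2, Plod2, Greb1, Adamts19 and Spon2 on the estradiol side and Cyp2f2, Podn, Aatk, Syt12, Ces1f and Hsd11b1 on the testosterone side.

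The stretches of 250 bases before the annotated start of Akr1cl, Mmd2, Greb1 and Cyp2f2 are shown because these genes parted the hormones most widely, are the classical oestrogen target among them, or led the testosterone side. They are RefSeq sequences of assembly GRCm38.p6, written 5′ to 3′ on the strand of the gene, and capitals mark the letters GGTCA, the half-site of the oestrogen receptor, or its complement TGACC. The windows are chr1:65032760-65033009 on the minus strand for Akr1cl, chr5:142608753-142609002 on the minus strand for Mmd2, chr12:16800887-16801136 on the minus strand for Greb1, and chr7:27119705-27119954 on the plus strand for Cyp2f2.
Akr1cl: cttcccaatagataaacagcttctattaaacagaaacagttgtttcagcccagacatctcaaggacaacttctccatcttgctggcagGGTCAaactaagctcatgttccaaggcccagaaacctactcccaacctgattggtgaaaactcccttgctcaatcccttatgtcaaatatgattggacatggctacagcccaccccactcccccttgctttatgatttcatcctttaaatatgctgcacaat
Mmd2: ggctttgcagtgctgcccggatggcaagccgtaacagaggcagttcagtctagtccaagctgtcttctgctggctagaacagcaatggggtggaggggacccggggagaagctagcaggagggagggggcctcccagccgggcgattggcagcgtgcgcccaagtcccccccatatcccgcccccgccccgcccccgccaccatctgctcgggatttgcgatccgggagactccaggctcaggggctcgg
Greb1: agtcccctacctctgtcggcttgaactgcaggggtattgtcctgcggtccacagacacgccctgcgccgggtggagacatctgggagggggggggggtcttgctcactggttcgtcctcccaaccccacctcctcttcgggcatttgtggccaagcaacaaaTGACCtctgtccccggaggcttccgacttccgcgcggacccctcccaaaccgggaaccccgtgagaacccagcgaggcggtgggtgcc
Cyp2f2: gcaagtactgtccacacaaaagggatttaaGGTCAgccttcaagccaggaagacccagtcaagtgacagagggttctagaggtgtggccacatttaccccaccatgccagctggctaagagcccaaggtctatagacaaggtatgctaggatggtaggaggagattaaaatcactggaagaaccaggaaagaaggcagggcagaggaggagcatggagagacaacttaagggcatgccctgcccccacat
The half-site occurs at positions -162 to -158 before the start of Akr1cl, -88 to -84 before that of Greb1 and -220 to -216 before that of Cyp2f2, and not in this window of Mmd2. Both strands were searched for the half-site GGTCA, for the full oestrogen response element (GGTCA and its complement TGACC with 3 bases between them) and the motif TCAAGGTCA, both of which contain the half-site, and for the full androgen response element (GNACA and its complement TGTNC with 3 bases between them). The half-site was in 35.2% of all 32851 such windows in the table and in 33.9% of the 10176 windows of tested genes. It was in 33.9% of the 165 windows of genes called 2-fold or more higher with estradiol and in 41.6% of the 89 windows of those higher with testosterone. For the genes with no overlap between the hormones it was in 14 of 23 windows (60.9%), several of which belong to the same gene. None of the windows of tested genes held the full oestrogen response element, and 28 of them (0.275%) held the full androgen response element. The counts describe letters in a short window only.

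Akr1cl, listed as 4921521F21Rik, is a member of the aldo-keto reductase family, whose relatives convert steroids. Its level lay between 4.58 and 7.79 (median 5.45) in testosterone arrays and between 11.63 and 13.64 (median 12.66) in estradiol arrays. Between the highest testosterone array and the lowest estradiol array lay a gap of 3.84, the widest of all probes. The difference was -6.98 ± 0.24 (SE, limma adjusted p = 1.04e-20), a 127-fold higher signal with estradiol. The probe was detected in 6 of 19 testosterone arrays. In the 17 blank arrays it lay between 4.67 and 7.88, which covers nearly the same range as testosterone. A second, dimmer probe of the gene differed by -1.49 and also showed no overlap. That probe was detected in no testosterone array, where it read 4.46 to 4.81, and in 11 estradiol arrays. It was at least 1.06-fold higher with estradiol.

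Mmd2, a membrane protein of the progestin and adipoQ receptor family, lay between 4.67 and 8.38 (median 5.66) with testosterone and between 10.94 and 13.05 (median 12.41) with estradiol. It differed by -6.40 ± 0.23 (adjusted p = 1.40e-20), 84.2-fold, and was detected in 7 of 19 testosterone arrays. The differences within the genotypes were alike, from -6.59 in XXSry to -6.17 in XY-. Blank arrays ran from 4.81 to 8.87, and none of them reached the estradiol range.

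Plod2, the lysyl hydroxylase that prepares collagen for cross-linking, lay between 6.10 and 8.18 (median 7.32) with testosterone and between 9.69 and 11.66 (median 10.84) with estradiol. Its difference was -3.52 ± 0.15 (adjusted p = 9.61e-19), 11.4-fold. Greb1, a classical target and cofactor of the oestrogen receptor, lay between 4.54 and 5.89 (median 4.94) with testosterone and between 7.05 and 9.15 (median 8.61) with estradiol. It was detected in 1 testosterone array and in all 19 estradiol arrays, and differed by -3.43 ± 0.14 (adjusted p = 4.24e-19). All 3 Greb1 probes were called, with differences from -3.43 to -1.34, and 2 of them showed no overlap.

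Adamts19, a secreted metalloprotease, was not detected in any testosterone array, where it read between 4.56 and 5.79. Every estradiol array detected it, at 6.75 to 9.99 (median 8.91), so that it was at least 6.98-fold higher with estradiol (adjusted p = 1.69e-20). This bound sets the estradiol mean against the lowest signal that counts as detected on each testosterone array. Spon2, the secreted matrix protein spondin 2, was bright with both hormones, at 9.95 to 11.45 (median 10.98) with testosterone and 12.00 to 14.15 (median 13.54) with estradiol. It differed by -2.55 ± 0.12 (adjusted p = 2.56e-17).

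The remaining estradiol genes without overlap form a mixed group of ligands, matrix enzymes and signalling proteins. Gas6, a ligand of receptor tyrosine kinases on macrophages and endothelium, lay between 11.45 and 13.44 with testosterone and between 13.71 and 14.60 with estradiol. Tgm2, an enzyme that cross-links matrix proteins, lay between 11.87 and 13.12 and between 13.25 and 14.07. Mdk, the heparin-binding growth factor midkine, lay between 7.86 and 9.04 with testosterone and between 9.17 and 10.27 with estradiol, and its blank arrays, at 9.04 to 10.15, resembled estradiol. P4ha3, a subunit of the enzyme that hydroxylates collagen prolines, stayed between 4.44 and 4.87 with testosterone, near the level of a probe without signal, and lay between 5.00 and 7.76 with estradiol. The others were Fbxw17, Mras, Rgs3, Rps6kl1 and Zxdc (listed as BC003332), whose ranges were between 0.03 and 0.25 apart.

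Cyp2f2, a cytochrome P450 enzyme known for metabolising naphthalene in mouse lung, led the testosterone side. Its level was 11.75 to 13.57 (median 12.40) with testosterone and 7.24 to 9.99 (median 8.81) with estradiol. The difference was 3.63 ± 0.17 (adjusted p = 8.39e-18), 12.4-fold, and the gap between the ranges was 1.76. Blank arrays, at 10.45 to 13.21, overlapped the testosterone range and not the estradiol range.

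Podn, the small proteoglycan podocan, lay between 8.53 and 10.15 (median 9.31) with testosterone and between 5.79 and 8.01 (median 7.0) with estradiol, a difference of 2.36 ± 0.15 (adjusted p = 8.15e-14). Syt12, a synaptotagmin, lay between 7.36 and 8.87 (median 8.33) and between 4.93 and 7.13 (median 5.74), a difference of 2.42 ± 0.16 (adjusted p = 3.77e-13). It was detected in all testosterone arrays and in 9 of 19 estradiol arrays. Hsd11b1, the enzyme that regenerates active glucocorticoid inside fat cells, lay between 12.14 and 13.62 (median 12.60) with testosterone and between 9.61 and 12.05 (median 10.32) with estradiol. It differed by 2.19 ± 0.12 (adjusted p = 1.37e-15), and its 3 probes gave 2.12 to 2.19.

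Aatk, a kinase named for a role in apoptosis, and Ces1f (listed as AU018778), a carboxylesterase that cleaves lipid esters, were narrower separators. Aatk lay between 11.16 and 12.10 with testosterone and between 9.57 and 10.92 with estradiol (1.26 ± 0.09, adjusted p = 6.66e-13). Ces1f lay between 11.02 and 12.29 and between 8.6 and 10.86 (1.3 ± 0.13, adjusted p = 3.80e-09). Tle1, a transcriptional corepressor, and Kmt5b (listed as C630029K18Rik), a histone methyltransferase, complete the 8 testosterone genes without overlap.

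**Figure D2:**
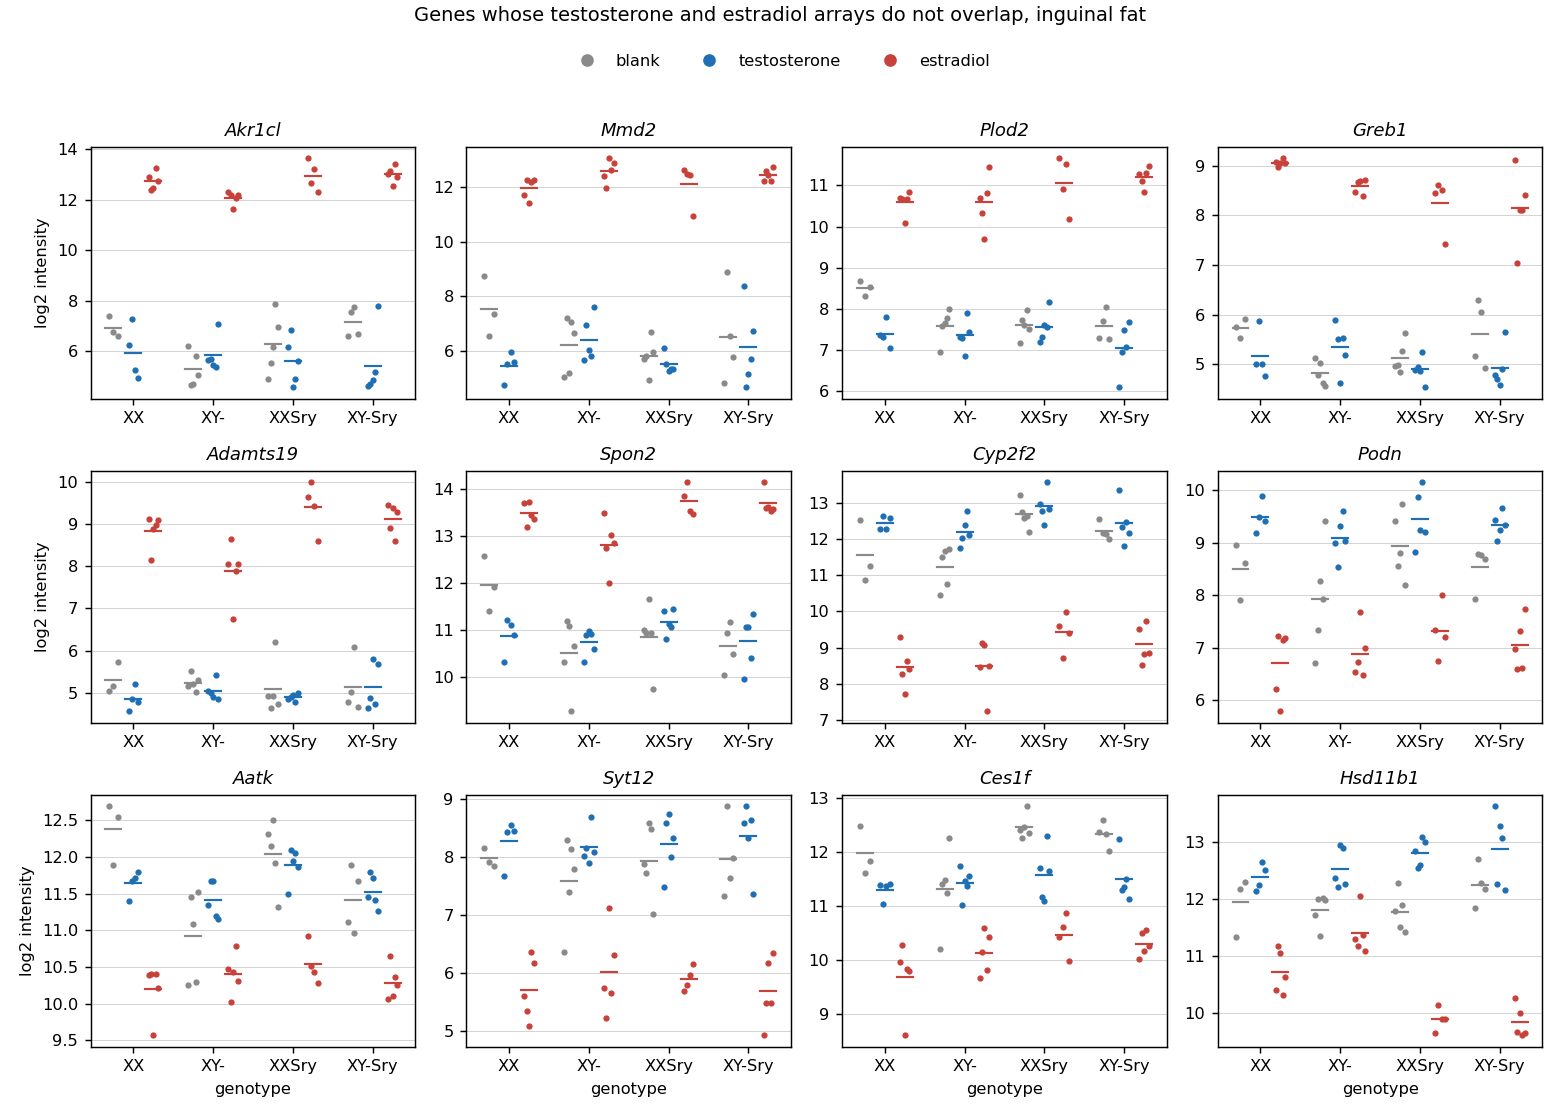
Log2 intensity of 12 genes whose testosterone and estradiol arrays do not overlap, by genotype, with 1 point per array and a line at the group mean (grey blank, blue testosterone, red estradiol). Akr1cl reads 4.58 to 7.79 in blue and 11.63 to 13.64 in red across all 4 genotypes, and in the testosterone genes, such as Cyp2f2, blue lies above red.

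The other large differences that kept their sign in every genotype came with overlap between single arrays. On the estradiol side, Ngfr, the low-affinity neurotrophin receptor, lay between 6.41 and 9.07 (median 7.27) with testosterone and between 9.01 and 12.08 (median 11.32) with estradiol (-3.86 ± 0.21, adjusted p = 1.27e-15). Lrrc15, a leucine-rich membrane protein of fibroblasts, lay between 4.59 and 6.13 and between 5.50 and 10.19 (-3.52 ± 0.26, adjusted p = 2.37e-12). Cldn11, a tight junction claudin, lay between 4.97 and 10.07 and between 9.71 and 12.18 (-3.46 ± 0.35, adjusted p = 3.73e-09). For Ngfr and Cldn11 the overlap was confined to the edges of the ranges, and for Lrrc15 it covered 5.50 to 6.13.

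Glycam1, a mucin made by the high endothelial venules of lymph nodes, overlapped over nearly its whole range, with 4.84 to 11.37 for testosterone and 4.66 to 13.93 for estradiol (-3.37 ± 0.90, adjusted p = 0.00793). It is itself 1 of the 13 lymph node markers, of which it alone was called, and the other 12 differed by -1.54 to -0.06. With liver, muscle and lymph node marker levels as covariates its difference was -1.86 (adjusted p = 0.000124), a fit in which the gene contributes to its own covariate. With slide as a fixed block it was -2.44 (adjusted p = 0.262).

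On the testosterone side, Rprml, a reprimo-like membrane protein, lay between 7.48 and 10.43 (median 8.96) with testosterone and between 5.55 and 8.06 (median 6.70) with estradiol (2.22 ± 0.18, adjusted p = 3.79e-11). Timp4, an inhibitor of matrix metalloproteinases that adipocytes secrete, lay between 8.88 and 12.63 and between 7.74 and 9.65 (1.85 ± 0.20, adjusted p = 1.79e-08). Serpina3m, a serine protease inhibitor, was detected in 17 of 19 testosterone arrays and 4 of 19 estradiol arrays, with a difference of 2.03 ± 0.32 (adjusted p = 2.18e-05) and of 1.85 without XY-Sry T replicate 1. Odf3l2 (listed as Gm1157), a relative of a sperm tail protein, was detected in 13 and 1 arrays and differed by 2.45 ± 0.48 (adjusted p = 0.000320). It lay between 4.68 and 6.24 with estradiol and spread from 4.83 to 10.43 with testosterone.

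Mettl21c (listed as A530098C11Rik), a protein lysine methyltransferase of skeletal muscle, spread from 4.63 to 12.30 with testosterone and from 4.54 to 9.20 with estradiol (2.88 ± 0.78, adjusted p = 0.00848). The 12 skeletal muscle markers differed by 0.81 to 1.89, and none of them was called. With liver, muscle and lymph node marker levels as covariates Mettl21c differed by 1.59 (adjusted p = 0.0114), and with slide as a fixed block by 2.23 (adjusted p = 0.239). Slc47a1 (listed as 1300013J15Rik), an exporter of organic cations, differed by 1.93 ± 0.41 (adjusted p = 0.000874), by 1.15 with the covariates (adjusted p = 0.00298) and by 1.61 with slide as a fixed block (adjusted p = 0.0779).

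Esr1, oestrogen receptor alpha, was not called between the hormones. It lay between 7.02 and 8.52 with testosterone and between 6.84 and 9.13 with estradiol (0.06 ± 0.14, adjusted p = 0.811). Esr1 was lower than blank with both hormones, by -0.76 (adjusted p = 0.00709) for testosterone and -0.82 (adjusted p = 0.000615) for estradiol. Pgr, the progesterone receptor and a classical oestrogen target, was not detected in any testosterone array and was detected in 10 estradiol arrays, at 4.73 to 6.93 (adjusted p = 1.16e-06). Among 11 tested receptors and coregulators, 2 were called (18.2%, against 18.1% of all probes). They were Pgr on the estradiol side and Esrra, an orphan receptor of oxidative metabolism (0.31 ± 0.08, adjusted p = 0.00376), on the testosterone side. The call of Esrra was lost with slide as a fixed block (0.25, adjusted p = 0.120) and under median centring (adjusted p = 0.118).

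Known targets of the hormones were called in both directions. Of 15 tested genes known as oestrogen receptor targets in other tissues, 6 (40%, against 18.1% of all probes) were called and 9 were not. Of the 6, 4 were higher with estradiol (Greb1, Areg, Pgr and Rara) and 2 with testosterone (Adora1 and Wnt4). The list median was 0.03 against -0.01 for all tested probes. Areg, the epidermal growth factor receptor ligand amphiregulin, differed by -2.43 ± 0.28 (adjusted p = 7.35e-08). Adora1, an adenosine receptor that restrains lipolysis, differed by 0.94 ± 0.15 (adjusted p = 1.74e-05). Of 15 tested genes known as androgen targets, 7 (46.7%, against 18.1% of all probes) were called and 8 were not, with a median of 0.35. Of the 7, 6 were higher with testosterone (Fkbp5, Tmprss2, Steap4, Odc1, Sgk1 and Igf1) and 1 with estradiol (Cdkn1a). With slide as a fixed block 3 of the 15 androgen targets were called, all higher with testosterone. In the same fit 4 oestrogen targets were called, 3 higher with estradiol and 1 with testosterone. Of all 13961 probes, 1289 were called in that fit.

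Fkbp5, a chaperone of steroid receptors that is also a glucocorticoid target, lay between 8.04 and 11.00 (median 9.17) with testosterone and between 6.96 and 9.76 (median 7.60) with estradiol. It differed by 1.49 ± 0.21 (adjusted p = 2.50e-06), 2.82-fold. Tmprss2, a membrane protease, differed by 1.11 ± 0.34 (adjusted p = 0.0193) and by 0.93 with slide as a fixed block (adjusted p = 0.262). Cdkn1a, the cell cycle inhibitor p21, differed by -0.79 ± 0.19 (adjusted p = 0.00338), and 1 of its 3 probes was called. Cdkn1a was not called with slide as a fixed block (-0.74, adjusted p = 0.0569).

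Enzymes that convert steroids were called in both directions, in a list that also held Akr1cl as a relative of such enzymes. Of 14 tested, 6 (42.9%, against 18.1% of all probes) were called and 8 were not. Akr1cl, Akr1c18, Hsd11b2 and Akr1c14 were higher with estradiol, and Hsd11b1 and Hsd17b7 were higher with testosterone. The call of Hsd17b7 was lost under median centring (adjusted p = 0.0938). Akr1c18, which inactivates progesterone, lay between 4.75 and 7.30 with testosterone and between 5.69 and 9.28 with estradiol (-2.02 ± 0.28, adjusted p = 2.94e-06). The pair of enzymes that interconvert active and inactive glucocorticoid moved in opposite directions. Hsd11b1, which activates, was higher with testosterone, as given above. Hsd11b2, which inactivates, was not detected in any testosterone array and was detected in 9 estradiol arrays, all at 7.59 or less (adjusted p = 4.76e-10).

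Set beside the blank arrays, all 12 genes in the plot of separators lay farther from blank with estradiol than with testosterone. Among the separators outside that plot, Mdk and Tle1 went the other way. Mdk had medians of 8.42 with testosterone, 9.60 with estradiol and 9.53 with blank, and Tle1 of 9.95, 8.88 and 9.16. In a fit of all 55 fat arrays, 690 probes (4.94%) were called for testosterone against blank and 2974 (21.3%) for estradiol against blank. Both comparisons use the same 17 blank arrays, so their values are given side by side only. No blank array lay on slides 1, 5 and 7, which held 11 arrays of each hormone. Blank shared slides 3 and 6 with testosterone and slides 2 and 8 with estradiol. The fit had no slide term, so each difference from blank is partly confounded with slide. Akr1cl was -0.70 ± 0.26 with testosterone (adjusted p = 0.114) and 6.28 ± 0.26 with estradiol. Cyp2f2 was 0.58 with testosterone (adjusted p = 0.0396) and -3.05 with estradiol.

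In the fit of all 55 fat arrays, which had no slide term, a few genes were called in opposite directions against blank. Podn was 0.87 with testosterone (adjusted p = 0.00235) and -1.48 with estradiol, and Hsd11b1 was 0.71 and -1.48. Timp4 was 1.15 and -0.70, and Avpr1a, the vasopressin receptor of liver and vessels, was 1.03 and -0.72. Lrrc15 and Cldn11 went the other way, with -0.88 and -1.35 for testosterone and 2.64 and 2.10 for estradiol. Odf3l2, at 2.13 and -0.32, and Serpina3m, at 2.08 and 0.04, were called against blank for testosterone and not for estradiol.

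**Figure D3:**
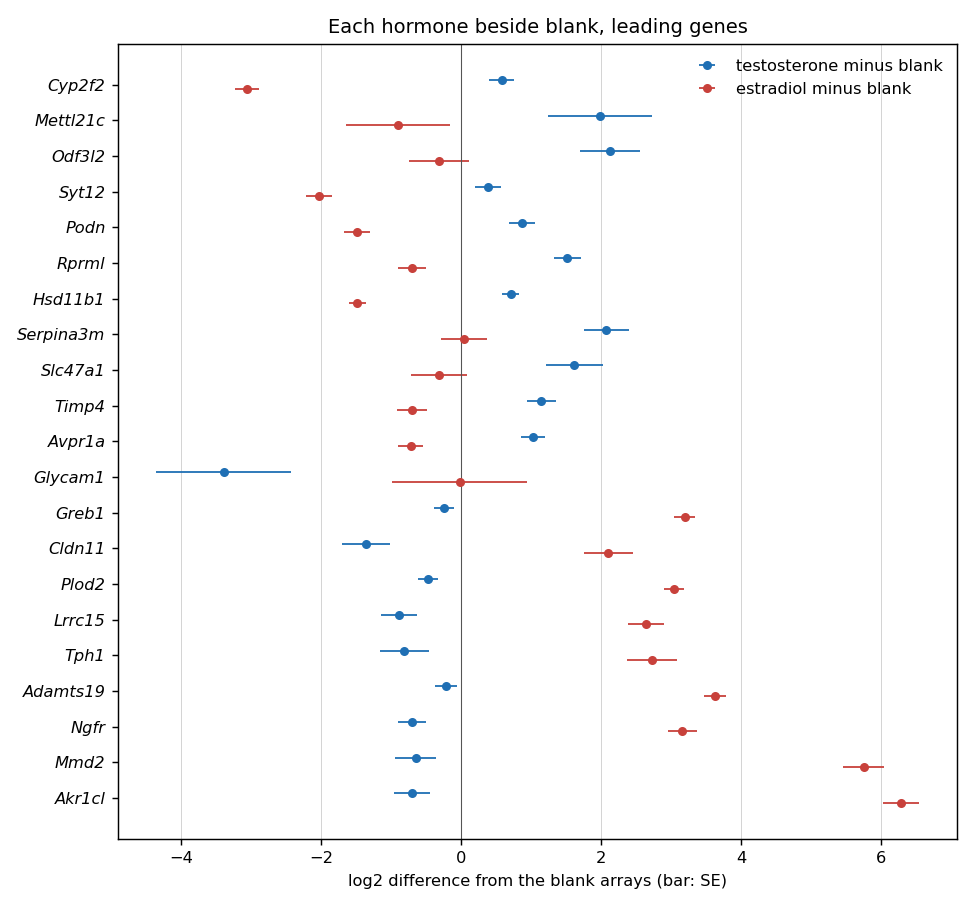
Log2 difference from the blank arrays for testosterone (blue) and estradiol (red) in 21 leading genes, with the SE as a bar, from the fit of all 55 fat arrays. Akr1cl and Mmd2 stand at 6.28 and 5.75 for estradiol, while Podn, Hsd11b1, Timp4 and Avpr1a lie on opposite sides of 0 for the 2 hormones.

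Of 27 tested genes of lipid storage and lipolysis, 10 (37%, against 18.1% of all probes) were called and 17 were not, with a median of 0.21. Of the 10, 9 were higher with testosterone and 1 with estradiol. Gpd1, which makes the glycerol backbone of triglyceride, differed by 1.07 ± 0.20 (adjusted p = 0.000189), and Lpin1, a phosphatidate phosphatase, by 0.79 ± 0.19 (adjusted p = 0.00256). Lpin1 was not called with slide as a fixed block (0.67, adjusted p = 0.0645). Gpam, which adds the first fatty acid to glycerol phosphate, went the other way at -1.15 ± 0.18 (adjusted p = 1.91e-05). Without XY-Sry T replicate 1, 10 of the 27 were higher with testosterone and 1 with estradiol.

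Of 16 tested fatty acid synthesis genes, 2 (12.5%, against 18.1% of all probes) were called, and both were higher with estradiol. The count was 3 without XY-Sry T replicate 1. The 2 genes were the NADPH-producing enzymes G6pdx (-1.17 ± 0.15, adjusted p = 8.48e-07) and Pgd (-0.81 ± 0.13, adjusted p = 2.33e-05) of the pentose phosphate pathway. The fatty acid synthase Fasn (-0.17) and the carboxylase Acaca (-0.12) were not called. G6pdx lay between 9.09 and 11.27 with testosterone and between 10.49 and 11.74 with estradiol, so that the ranges overlapped in their upper and lower parts.

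Of 17 tested brown and beige fat genes, 4 (23.5%, against 18.1% of all probes) were higher with testosterone and 13 were not called, with a median of 0.49. Without XY-Sry T replicate 1, 5 were higher with testosterone and 1 with estradiol. With liver, muscle, lymph node and epithelial marker levels as covariates, 3 were higher with testosterone and 2 with estradiol, with a median of 0.23. The skeletal muscle markers had a median of 1.25 with none of 12 called, and their part in these differences was not tested beyond that fit. Cidea, a lipid droplet protein of thermogenic fat, lay between 9.08 and 12.95 (median 10.67) with testosterone and between 6.92 and 11.66 (median 9.18) with estradiol (1.77 ± 0.33, adjusted p = 0.000199). Ppargc1a, a coactivator that drives mitochondrial genes, differed by 1.18 ± 0.23 (adjusted p = 0.000317). Ucp1, the uncoupling protein that defines brown fat, differed by 1.3 and was not called. Adrb3 and Ebf2 were the other 2 called genes, and both calls were lost with slide as a fixed block and under median centring.

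Of 13 tested adipokines, 8 (61.5%, against 18.1% of all probes) were called and 5 were not. Of the 8, 6 were higher with testosterone and 2 with estradiol. Rbp4, a retinol carrier, differed by 1.22 ± 0.24 (adjusted p = 0.000403), and Rarres2, which encodes chemerin, by 0.95 ± 0.12 (adjusted p = 6.76e-07). Lep, the satiety hormone leptin, differed by 0.52 and was called, and Adipoq differed by 0.05 and was not. With slide as a fixed block (1289 of 13961 probes called), 4 of the 13 were called, 2 higher with estradiol and 2 with testosterone. Those 2 were Rbp4 and Rarres2, so the call of Lep was lost. Agt, angiotensinogen, differed by 1.14 ± 0.38 (adjusted p = 0.0342), a call that was lost without XY-Sry T replicate 1 (0.98), with slide as a fixed block (0.68, adjusted p = 0.493) and with liver, muscle and lymph node marker levels as covariates (0.52, adjusted p = 0.300). Pltp, a phospholipid carrier, led the estradiol side at -0.72 ± 0.16 (adjusted p = 0.00176).

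Of 15 tested clock genes, 4 (26.7%, against 18.1% of all probes) were higher with testosterone (Ciart, Nr1d1, Rora and Tef) and 11 were not called. Nr1d1, the repressor REV-ERB alpha, differed by 0.85 ± 0.14 (adjusted p = 4.55e-05), and it alone of the 4 was called with slide as a fixed block. Of 15 cholesterol synthesis genes 2 were called, of 24 genes of glucose uptake and insulin signalling 6 were called (4 higher with testosterone, 2 with estradiol), and of 22 respiratory chain subunits 1 was called. These shares were 13.3%, 25% and 4.55%, against 18.1% of all probes. With slide as a fixed block (1289 of 13961 probes called), 1 of the 24 glucose and insulin genes was called, higher with estradiol. None of the 22 subunits was called in that fit. Without XY-Sry T replicate 1, 1 cholesterol gene and 2 subunits were called. Hk2, a hexokinase, differed by 0.71 ± 0.19 (adjusted p = 0.00622) while its relative Hk1 differed by -0.56 ± 0.12 (adjusted p = 0.00100). With slide as a fixed block neither was called, at 0.49 (adjusted p = 0.226) for Hk2 and -0.45 (adjusted p = 0.0856) for Hk1. Igfbp6, which binds insulin-like growth factors, differed by -1.14 ± 0.18 (adjusted p = 1.91e-05).

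**Figure D4:**
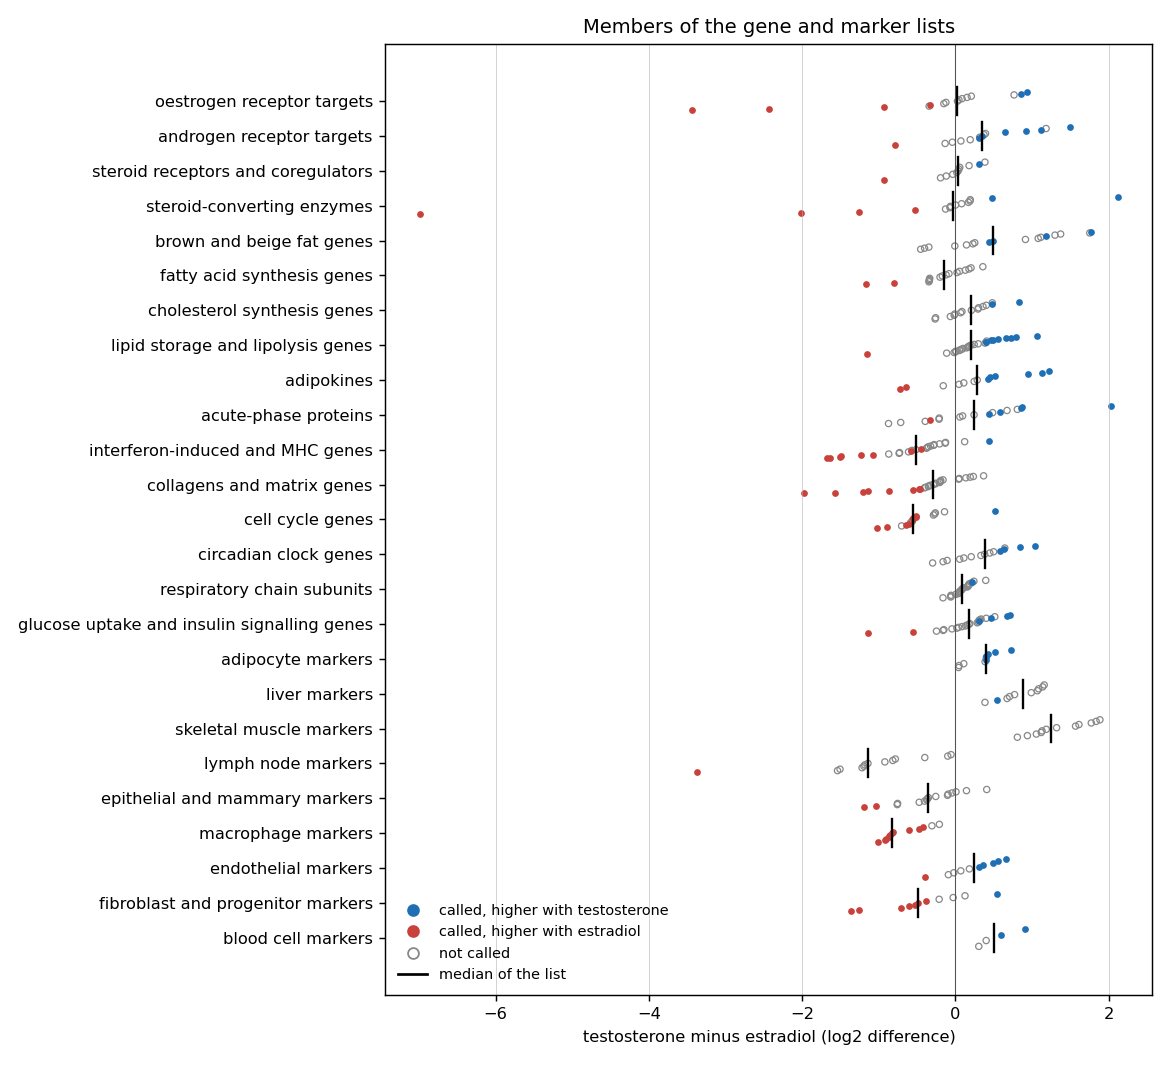
Testosterone minus estradiol (log2 difference, horizontal) for each tested member of 16 gene lists and 9 marker lists, filled where called and with a bar at the list median. Macrophage markers lie to the left, with 11 of 13 called, whereas skeletal muscle markers lie to the right with none of 12 called.

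Of 25 tested interferon-induced and antigen presentation genes, 9 (36%, against 18.1% of all probes) were called and 16 were not, with a median of -0.51. Of the 9, 8 were higher with estradiol and 1 with testosterone. With slide as a fixed block (1289 of 13961 probes called) the median was -0.28, with 5 higher with estradiol and 1 with testosterone. With liver, muscle and lymph node marker levels as covariates it was -0.14 (6 higher with estradiol, 1 with testosterone). With the planned 4 lists, which add epithelial markers, the list median was -0.18 (5 higher with estradiol, 1 with testosterone). Beside it, the lymph node markers had a median of -1.14 and the macrophage markers one of -0.83, and the part of the macrophage markers was not tested. Oasl2, an antiviral synthetase, lay between 8.12 and 12.11 (median 8.98) with testosterone and between 9.16 and 11.64 (median 10.92) with estradiol (-1.68 ± 0.25, adjusted p = 9.79e-06). Isg15, a ubiquitin-like protein, differed by -1.64 ± 0.31 (adjusted p = 0.000214), Irf7, a regulator of interferon genes, by -1.50 ± 0.24 (adjusted p = 3.04e-05) and Ifit3 by -1.50 ± 0.22 (adjusted p = 8.28e-06). Isg15 was not called with slide as a fixed block (-1.22, adjusted p = 0.0536). The direction of these 4 was opposite within slide 1, at 0.71, 1.21, 0.89 and 0.71, a slide on which XY- and XY-Sry alone carried both hormones. Cxcl9, a chemokine, was the gene higher with testosterone, at 0.44.

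Of 27 tested collagen and matrix genes, 8 (29.6%, against 18.1% of all probes) were called, all higher with estradiol. The other 19 were not called, and the list median was -0.29. Thbs1, a thrombospondin, lay between 4.58 and 7.66 (median 5.21) with testosterone and between 5.13 and 9.12 (median 7.63) with estradiol (-1.98 ± 0.30, adjusted p = 8.70e-06). Lum, the proteoglycan lumican, differed by -1.57 ± 0.21 (adjusted p = 1.05e-06), and Thbs2 by -1.20 ± 0.17 (adjusted p = 2.68e-06). The fibrillar collagens Col1a1 (-0.29), Col1a2 (-0.19) and Col3a1 (-0.35) were not called. Timp1, a metalloproteinase inhibitor, differed by -1.14 ± 0.38 (adjusted p = 0.0312), a call lost with slide as a block.

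Of 17 tested cell cycle genes, 9 (52.9%, against 18.1% of all probes) were called and 8 were not, with a median of -0.55. Of the 9, 8 were higher with estradiol, and Aurka was higher with testosterone at 0.51. Top2a, which untangles DNA in dividing cells, differed by -1.03 ± 0.29 (adjusted p = 0.0124), and Cdk1, the mitotic kinase, by -0.89 ± 0.22 (adjusted p = 0.00451). None of the 17 was called with slide as a fixed block, a fit in which 1289 of 13961 probes were called. The lymph node markers had a median of -1.14 with 1 of 13 called. With liver, muscle and lymph node levels as covariates 4 of the 17 were called, all higher with estradiol. With the planned 4 lists, which add epithelial markers, 2 of the 17 were called, each higher with estradiol. Leaving out XY-Sry T replicate 1 gave 7 higher with estradiol and 1 higher with testosterone.

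Of 17 tested acute-phase genes, 6 (35.3%, against 18.1% of all probes) were called and 11 were not. Of the 6, 5 were higher with testosterone and 1 with estradiol. Hp, which encodes the haemoglobin-binding protein haptoglobin, lay between 14.10 and 14.96 (median 14.60) with testosterone and between 13.35 and 14.78 (median 13.96) with estradiol (0.58 ± 0.09, adjusted p = 2.51e-05). Against blank, at 11.26 to 13.11, it was higher with both hormones, by 2.31 and 1.73. Serpina3n, a protease inhibitor, differed by 0.87 ± 0.12 (adjusted p = 2.67e-06), and Il1r2, a decoy receptor for interleukin, by 0.86 ± 0.19 (adjusted p = 0.00133). The liver markers had a median of 0.88 with 1 of 10 called, and without XY-Sry T replicate 1 their median was 0.53 while 4 acute-phase genes were higher with testosterone and 1 with estradiol. The called liver marker was Cyp2e1, which was detected in all 38 arrays at 13.35 to 14.77.

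Markers of the cell types of fat also differed, and in bulk tissue fewer cells of a type and less RNA per cell cannot be told apart. Of 13 tested macrophage markers, 11 (84.6%, against 18.1% of all probes) were higher with estradiol and none was higher with testosterone, with a median of -0.83. Their mean level per array was 9.05 to 10.93 (median 9.87) with testosterone, 9.88 to 11.16 (median 10.72) with estradiol and 8.62 to 10.33 (median 9.35) with blank. C1qa, a complement component, differed by -1.0 and the lysosomal Cd68 by -0.91, and Cd163 (-0.31) and Cd14 (-0.21) were not called.

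Of 11 fibroblast and progenitor markers, 7 were higher with estradiol, led by Thy1 (-1.36) and Fap (-1.26), and Pi16 was higher with testosterone (0.55). Of 10 adipocyte markers, 5 were higher with testosterone, by 0.40 to 0.73, and 5 were not called. Of 10 endothelial markers, 5 were higher with testosterone, led by Cdh5 (0.66) and Cldn5 (0.56), and Vwf was higher with estradiol (-0.40). Of 4 blood cell markers 2 were higher with testosterone. Of 16 epithelial and mammary markers 2 keratins, Krt19 (-1.19) and Krt15 (-1.03), were higher with estradiol, which is 12.5% against 18.1% of all probes. The other 14 were not called, at -0.76 (Krt8) to 0.41 (Cldn3). For fibroblast, adipocyte, endothelial and blood cell markers the shares called were 72.7%, 50%, 60% and 50%. With slide as a fixed block, 5 of the 13 macrophage markers, 3 of the 11 fibroblast markers and 2 of the 10 adipocyte markers were called, each of them in the directions given. In that fit with slide, 1289 of 13961 probes were called. Leaving out XY-Sry T replicate 1, with no block, left 10 macrophage and 6 fibroblast markers called. The part of cell composition in the other differences was not tested.

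Whether the hormones part the same genes in mice that had ovaries and in mice that had testes was tested as an interaction, the difference with Sry minus the difference without. It was called for 110 probes (0.788%). The testosterone minus estradiol difference, not the level, was higher with Sry for 69 of them and lower for 41. Alone, mice without Sry gave 1117 called probes (8%) and mice with Sry 905 (6.48%). Of the 110, 62 were called higher with estradiol in mice without Sry and not called in mice with Sry, and 21 were called higher with testosterone in mice without Sry and not called with Sry. Within single genotypes, with 4 or 5 arrays of each hormone, 375 probes were called in XX (2.69%), 300 in XY- (2.15%), 239 in XXSry (1.71%) and 272 in XY-Sry (1.95%). For the interaction of the hormones with XX against XY sex chromosomes limma called 0 probes, and 362 (2.59%) had an unadjusted p under 0.05.

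Among the genes with the smallest adjusted p were Phactr1, Sftpd, Krt6b, Esrrb and Ptn. Phactr1 (listed as Rpel1), a regulator of actin and protein phosphatase, lay between 5.98 and 6.96 in the 10 estradiol arrays without Sry and between 4.45 and 5.20 in every other array of the depot. Sftpd, the secreted surfactant protein D, lay between 6.89 and 10.36 in estradiol arrays without Sry, between 4.61 and 6.28 in estradiol arrays with Sry and between 4.48 and 5.30 in testosterone arrays. Krt6b (listed as Krt2-6b), a keratin of stratified epithelium, lay between 6.07 and 9.31, between 4.53 and 5.51 and between 4.45 and 5.45 in the same groups. Phactr1, Sftpd and Krt6b thus separated the hormones completely in mice without Sry and overlapped in mice with Sry.

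Esrrb, an orphan receptor related to the oestrogen receptors, lay between 8.36 and 10.13 in estradiol arrays without Sry and between 4.87 and 6.09 in testosterone arrays, and reached 7.61 in estradiol arrays with Sry. Its interaction was 3.58 ± 0.40 (adjusted p = 7.24e-07). The signals of Phactr1, Sftpd, Krt6b and Esrrb were not detected in any testosterone array, so their differences without Sry, -1.87, -3.70, -3.72 and -3.83, start from the level of a probe without signal and understate the change.

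Tph1 and Areg followed the same pattern. Tph1, the enzyme that starts serotonin synthesis outside the brain, lay between 10.42 and 11.99 in estradiol arrays without Sry, between 4.66 and 8.77 in estradiol arrays with Sry, and between 4.56 and 7.18 in testosterone arrays. It differed by -6.21 without Sry and by -0.87 with Sry, an interaction of 5.34 (adjusted p = 8.29e-07). Areg lay between 8.97 and 10.59 in estradiol arrays without Sry, between 4.56 and 8.11 in those with Sry and between 4.55 and 7.41 in testosterone arrays, an interaction of 4.37 (adjusted p = 5.63e-06). The epithelial and mammary marker level was 8.85 to 9.72 in estradiol arrays without Sry, 8.05 to 9.16 in testosterone arrays without Sry, and 5.27 to 7.62 in all arrays of either hormone with Sry. Its part in these interactions was not tested beyond a fit with the liver, muscle, lymph node and epithelial levels as covariates, in which those of Sftpd, Krt6b and Esrrb were 3.16, 3.65 and 3.22.

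Ptn, the heparin-binding growth factor pleiotrophin, was called in opposite directions. Without Sry it lay between 11.20 and 12.94 (median 12.36) with testosterone and between 8.98 and 10.68 (median 10.01) with estradiol, a difference of 2.44 ± 0.35 (adjusted p = 8.52e-06). With Sry it lay between 5.49 and 10.69 (median 8.32) with testosterone and between 9.56 and 10.96 (median 10.57) with estradiol, a difference of -2.02 ± 0.35 (adjusted p = 0.000189). The interaction was -4.47 ± 0.50 (adjusted p = 7.24e-07), and over all 4 genotypes the difference was 0.21 ± 0.25 and not called. Blank arrays also differed by gonad type, at 11.28 to 12.64 without Sry and 7.02 to 8.90 with Sry, so that the estradiol arrays lay below blank without Sry and above it with Sry.

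The glucocorticoid enzymes differed in the same test. Hsd11b1 differed by 1.40 without Sry and by 2.98 with Sry, an interaction of 1.58 ± 0.24 (adjusted p = 9.42e-05), and its estradiol arrays lay between 10.32 and 12.05 without Sry and between 9.61 and 10.26 with Sry. Hsd11b2 showed its estradiol signal in mice with Sry, at 5.97 to 7.59 against 4.73 to 5.86 in estradiol arrays without Sry, an interaction of -1.67 (adjusted p = 1.86e-05). The estradiol arrays of Pgr lay between 5.81 and 6.93 without Sry and between 4.73 and 6.62 with Sry, an interaction of 1.03 (adjusted p = 0.0326).

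**Figure D5:**
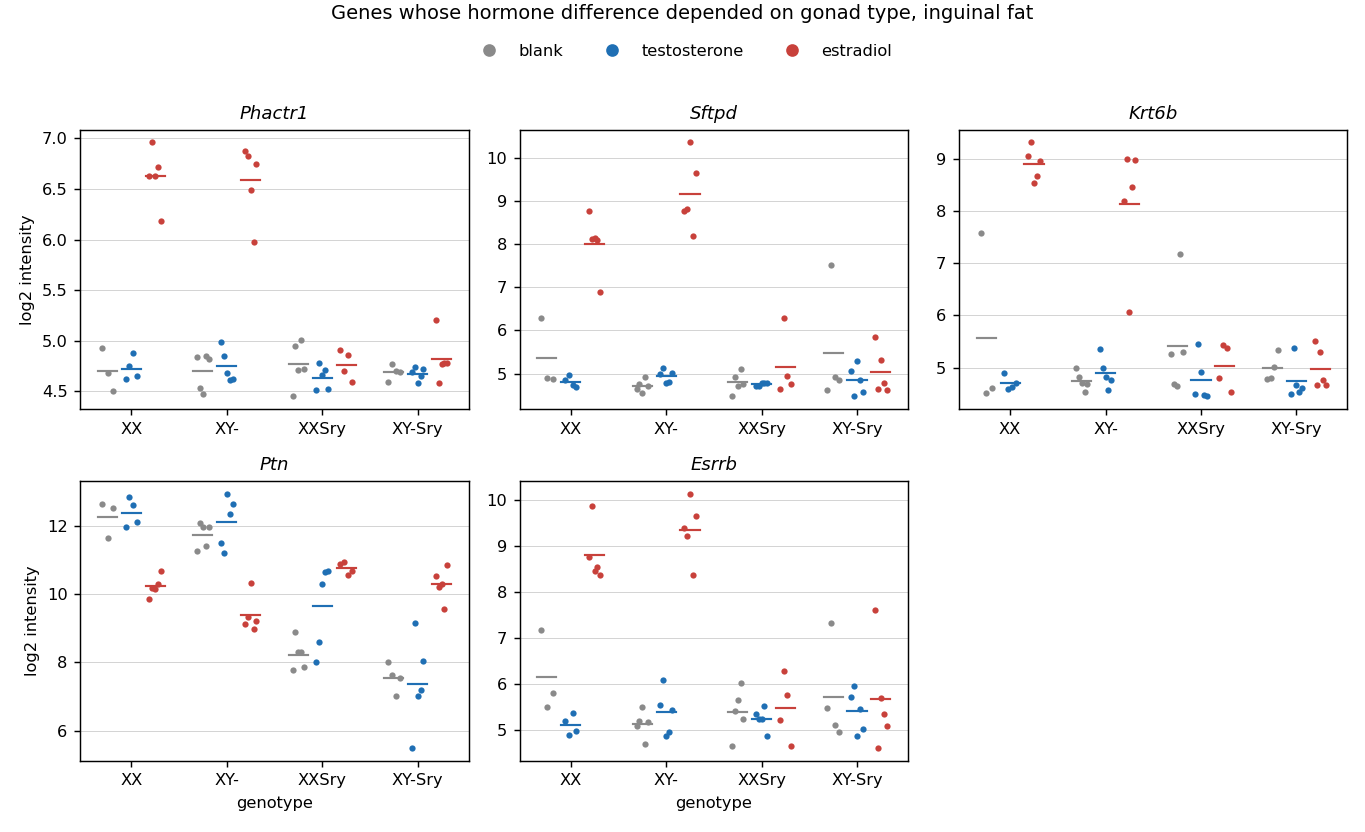
Log2 intensity of 5 of the genes with the smallest adjusted p for the interaction of hormone and gonad type, by genotype, with 1 point per array and a line at the group mean (grey blank, blue testosterone, red estradiol). In Phactr1, Sftpd, Krt6b and Esrrb every red point lies above every blue point in XX and XY-, and red and blue overlap in XXSry and XY-Sry, and in Ptn blue lies above red in XX and XY- with the order of the means turned in XXSry and XY-Sry.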

How the data were processed

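Gene expression was measured on Illumina bead arrays. The authors deposited 1 table of non-normalised bead intensity and detection p-value per probe and array, per the file headers, and the submitters' processing notes name lumi, with the scanner steps not given in the sources used here. The 55 columns of bead standard errors were not used. Normexp background correction from the detection p-values (offset 16), quantile normalisation of all 55 fat arrays and log2 were applied with limma 3.58.1 in R 4.3.3. The 13961 of 25697 probes with a deposited detection p-value under 0.01 in at least 4 of the 38 arrays were tested, and 97% of them matched a RefSeq symbol. Older symbols in the table were updated where they matched. Differences were fitted with lmFit and eBayes on 8 group means of the 38 arrays. Values beside blank came from 12 group means of 55 arrays. No pair of arrays held identical values. The number of arrays limits the precision. The steps were tested on simulated data. Figures were drawn with matplotlib 3.10.9.

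The members, gene lists and tests were chosen with earlier results of these data known. Named genes were the 10 largest called differences in each direction with the same sign in 4 genotypes, the 4 largest called members of each list, up to 6 genes per interaction, 6 called against blank in opposite directions, the 6 widest gaps in each direction, and Greb1, Pgr, Esr1, Fkbp5 and Hp. Some results under this rule are not reported here. Other members were named after their values were seen. A gene with several probes is given by the probe with the largest difference, and in the lists by its brightest probe. Alternatives covered background, scaling, filter, slide, tissue markers and single arrays.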

Additional observations from a re-analysis of the deposited data

Results flagged for a closer look

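Among 208 groups of 4 or 5 arrays, over 21 genes and 5 marker lists, 26 held 1 array far from the rest by Dixon's criterion, which chance alone meets in about 1 in 20 groups. Several of them lie in the separators. Akr1cl read 7.79 in XY-Sry T replicate 5 against 4.62 to 5.18 in the other arrays of its group, and 7.07 in XY- T replicate 5 against 5.38 to 5.69. XXSry E replicate 4 was the low estradiol array of its group for Mmd2, at 10.94 against 12.42 to 12.62, and for Greb1, at 7.43 against 8.45 to 8.61. Adamts19 read 8.15 in XX E replicate 2 against 8.89 to 9.13, and Plod2 read 10.08 in XX E replicate 3 against 10.66 to 10.84. Spon2 read 14.15 in XY-Sry E replicate 1 against 13.54 to 13.63.

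On the testosterone side, Hsd11b1 read 12.05 in XY- E replicate 3 against 11.09 to 11.37, which is the array that brings its estradiol range close to the testosterone range. Aatk read 9.57 in XX E replicate 3 against 10.22 to 10.40, Syt12 read 7.67 in XX T replicate 1 against 8.43 to 8.55, and Ces1f read 11.04 in XX T replicate 2 against 11.37 to 11.40. Among the genes that differed by gonad type, Krt6b read 6.07 and Ptn read 10.32 in the same XY- E replicate 3, against 8.18 to 9.0 and 8.98 to 9.34. Krt6b also read 5.37 in XY-Sry T replicate 2 against 4.50 to 4.67, and Esrrb read 9.87 in XX E replicate 2 against 8.36 to 8.77.

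The marker lists set single arrays apart as well. The liver level was 14.14 in XY-Sry T replicate 1 against 6.55 to 6.98, 10.54 in XX E replicate 1 against 6.21 to 6.34 and 9.13 in XY- E replicate 1 against 6.16 to 6.86. The lymph node level was 10.67 in XX T replicate 1 against 5.56 to 6.12 and 9.97 in XY-Sry T replicate 5 against 5.34 to 5.52. The muscle level was 8.61 in XX T replicate 1 against 12.99 to 13.07 and 7.56 in XXSry T replicate 2 against 11.74 to 13.39. The epithelial level was 9.04 in XX T replicate 3 against 8.48 to 8.49. The macrophage level was 10.79 in XXSry T replicate 5 against 9.81 to 9.99, 9.05 in XX T replicate 2 against 9.75 to 9.87, and 10.36 in XX E replicate 4 against 10.72 to 10.84.

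The hormone difference itself differed by gonad type for 5 named genes, tested as an interaction with limma. With Sry minus without Sry, it was 1.73 for Phactr1, 3.41 for Sftpd, 3.46 for Krt6b, 3.58 for Esrrb and -4.47 for Ptn.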

How the results depend on the processing

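The count of 2520 called probes was 1595 under median centring, 1289 with slide as a fixed block and 914 on the 3 shared slides alone. Median centring also gave 585 probes without Sry, 524 with Sry and 12 without overlap. The 3 shared slides gave 23 probes for gonad type, 297 without Sry and 326 with Sry. Array weights gave 1539 with Sry, and probes detected in at least 19 of the arrays gave 40 for gonad type, where fewer dim probes were tested. With XX E replicate 1 taken as testosterone, 69 were called for gonad type and 735 without Sry, and 1 probe had no overlap. Without that array the counts were 96, 1027 and 27. Leaving out the 6 arrays with the highest liver markers, an alternative chosen after seeing the data, gave 493 with Sry. The interaction with sex chromosomes gave 0 under each alternative run.

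Leaving out 1 array at a time gave 2148 (without XX T replicate 2) to 3144 (without XX T replicate 1) called probes, 88 to 110 for gonad type, 0 for sex chromosomes, 880 to 1353 without Sry, 698 to 1093 with Sry, and 26 to 39 without overlap, the last without XY- E replicate 3. Of 88 values of named genes, slide as a fixed block ended 24 calls and slide as a random block 3 (Timp1, Agt and Ndufb8). Without XY-Sry T replicate 1 the calls of Agt and Insig1 were lost. Some directions turned. Esr1 was -0.055 with 3 marker lists as covariates (chosen after seeing the data), -0.055 with 4 lists and -0.094 under median centring. Ptn over all genotypes was -0.054 with slide as a fixed block and -0.057 on the shared slides. Within slide 1, Fkbp5 was -0.18, Thbs1 0.51, Timp1 1.27, Oasl2 0.71, Isg15 1.21, Irf7 0.89, Ifit3 0.71, Agt -1.85, Rora -0.40 and Esrra -0.15. Within slide 5, Ebf2 was -0.023, and within slide 7, Ciart was -0.094, Tef -0.075 and Ndufb8 -0.027. The cause of these changes was not tested. Probes near the level without signal have compressed differences. Pairing by replicate number was not run because the labels give the arrays none, and slide was the block used.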

Other observations

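Further genes differed by gonad type, beyond those named by rule, and were chosen after their values were seen. Bnc1, a zinc finger protein of keratinocytes, differed by -2.09 without Sry and -0.06 with Sry, an interaction of 2.03 ± 0.24 (limma adjusted p = 2.04e-06). Lypd3, a surface protein of squamous epithelium, differed by -2.58 and 0.01 (adjusted p = 6.06e-06), and Aldh3a1, an aldehyde dehydrogenase of cornea and stomach, by -2.96 and 0.07 (adjusted p = 3.09e-05). Slc2a3, a glucose transporter, was called in opposite directions, at -1.49 without Sry and 0.75 with Sry (adjusted p = 2.04e-05). Stc2, a secreted glycoprotein, also was, at -0.96 and 0.72 (adjusted p = 0.000491). Axin2, a target of Wnt signalling, differed by 0.18 without Sry and -0.75 with Sry (adjusted p = 0.000522).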
